A study of Mus musculus with 6 samples.

Results

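The genes described here make ribosomes. They were chosen by symbol alone, from 21 name stems such as Utp, Nop, Nol, Rrp, Polr1, Fbl and Ncl. No measured value entered that rule, although earlier results of these data were known when the genes were chosen. The stems caught 67 of the 18193 genes that the arrays measured with at least 1 single-gene probe set (a group of short probes for a transcript). Of these, 57 have a known role in ribosome production or RNA polymerase I, and 10 were caught by name alone. Expression was compared between 3 arrays of MLL-AF9/Mn1wt cells and 3 arrays of MLL-AF9/Mn1null cells. Both groups came from sorted bone marrow of mice, had received an EGFP control vector and carried MLL-AF9, an oncogene made by fusion of MLL with AF9. All were grown with the cytokines mIL3, hIL6 and mSCF. In Mn1null cells Mn1, which encodes a transcriptional cofactor, had been deleted with CRISPR-Cas9, and in Mn1wt cells it was intact. The comparison asks which transcripts differ when Mn1 is deleted in cells that all carry the fusion. The labels state no age, no sex and no number of clones or mice, and they do not say that the replicates were separate cultures. The p-values therefore measure only how these samples scatter, and that scatter may be technical.

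Ribosome production starts in the nucleolus, where RNA polymerase I copies the ribosomal DNA into a long precursor. The U3 small nucleolar RNA and many proteins then assemble on the precursor as the small subunit processome, box C/D particles methylate its riboses and box H/ACA particles turn uridines into pseudouridines, and separate factors release and mature the large subunit. The cost of this pathway is high in growing cells, and many of its genes are known targets of MYC, a transcription factor that binds the letters CACGTG together with its partner MAX.

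Most genes of this pathway were lower without Mn1. Values are log2 expression, so a difference of -1 is a halving, and a gene was called when its adjusted p from limma, a linear model fitted over 14680 genes with Benjamini-Hochberg adjustment, was under 0.05. Of the 67 genes, 66 were tested, and 45 were lower in Mn1null, 4 were higher and 17 did not pass. Across all genes tested, 48.8% were called, 25.6% lower and 23.2% higher. All 45 of the lower calls fell among the 57 genes with a known role, of which 3 were higher and 9 did not pass. The median difference of these 57 genes was -0.39, which is 76.3% of the Mn1wt level, against -0.01 for all genes tested. In 47 of the 57 genes every Mn1null array lay below every Mn1wt array, and in 4 every Mn1null array lay above. Over all genes tested those arrangements made up 30.1% and 27.6%. Among genes brighter than the 50th percentile of all probe sets, 32.7% were called lower.

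The differences were moderate in size. The 45 lower genes differed by -0.77 to -0.18. A difference of -0.5 or beyond was found in 18 of the 57 genes, against 8.67% of all genes tested, and 0 of the 57 differed by -1 or beyond. Each gene was centred on its Mn1wt mean, and the median over the 57 genes was then taken in each array. These medians were -0.02, -0.01 and 0.01 in the Mn1wt arrays and -0.39, -0.38 and -0.38 in the Mn1null arrays. The Mn1null arrays thus lay close to each other and apart from the Mn1wt arrays. In bulk RNA, fewer cells of a type and less RNA per cell cannot be told apart.

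**Figure D1:**
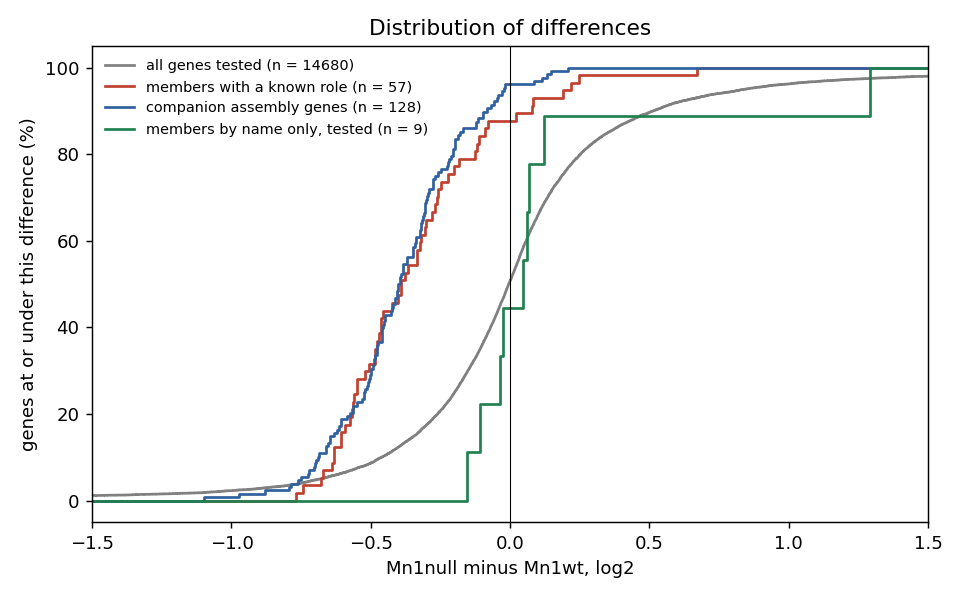
Cumulative share of genes (vertical axis, percent) at or under each difference of Mn1null minus Mn1wt (horizontal axis, log2), for all 14680 genes tested, the 57 genes with a known role, 128 further assembly genes and the 9 tested genes caught by name alone. The curves of the ribosome genes and of the further assembly genes lie to the left, with medians of -0.39 and -0.40, and the curve of all genes crosses its middle at -0.01. The axis is cut at -1.5 and 1.5, and some of all genes lie beyond it.

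Promoter letters are shown because the genes moved together and because CACGTG is the site known for MYC and its relatives. RefSeq promoter windows (GRCm38.p6, 250 bases before to 50 after a gene start) were found for 47 of the 57 genes, as 55 windows. CACGTG, which reads the same on both strands, was present in 13 of these 55 windows (23.6%), against 7.15% of all 32851 windows in the table and 9.22% of the 14943 windows of genes tested. The 13 windows belong to 11 genes, since 3 of them belong to Utp25. The motif was in 12 of the 44 windows of lower genes (27.3%), in 0 of 2 windows of higher genes and in 1 of 9 windows of genes that did not pass. The other motifs were searched on both strands, and none of the motifs is contained in another. The ETS core CCGGAAG was in 27.3% of the 55 windows, against 15% for genes tested. CCAAT was in 30.9% against 37.2%, and TATAAA in 9.09% against 8.29%. Median GC content was 57.3% in the 55 windows and 59.7% in those of genes tested. Windows of 1 gene can overlap, a match is only a run of letters, and binding was not measured. The 150 bases before the gene start are given for 4 lower genes of different steps that hold the motif and for Nop10, a higher gene that lacks it. They run 5′ to 3′ on the gene's own strand, with CACGTG in capitals.
Nol11 (chr11:107189382-107189531, minus strand): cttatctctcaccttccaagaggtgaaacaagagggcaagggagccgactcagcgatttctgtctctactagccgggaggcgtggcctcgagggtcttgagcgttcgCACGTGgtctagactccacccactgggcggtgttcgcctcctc
Utp18 (chr11:93885767-93885916, minus strand): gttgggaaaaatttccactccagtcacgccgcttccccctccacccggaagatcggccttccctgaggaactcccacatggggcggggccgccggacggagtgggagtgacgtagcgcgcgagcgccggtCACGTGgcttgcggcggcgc
Imp4 (chr1:34439679-34439828, plus strand): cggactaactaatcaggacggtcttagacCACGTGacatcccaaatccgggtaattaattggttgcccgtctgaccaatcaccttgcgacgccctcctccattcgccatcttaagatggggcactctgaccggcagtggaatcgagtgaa
Nop2 (chr6:125131733-125131882, plus strand): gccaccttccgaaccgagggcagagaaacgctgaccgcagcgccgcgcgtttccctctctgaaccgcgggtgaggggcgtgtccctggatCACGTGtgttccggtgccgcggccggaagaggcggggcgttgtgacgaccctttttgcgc
Nop10 (chr2:112261776-112261925, plus strand): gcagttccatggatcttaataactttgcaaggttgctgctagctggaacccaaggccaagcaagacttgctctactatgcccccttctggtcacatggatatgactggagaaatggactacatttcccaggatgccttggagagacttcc
The motif starts 43 bases before the gene start in Nol11, 20 in Utp18, 121 in Imp4 and 60 in Nop2. These 4 genes differed by -0.52, -0.55, -0.57 and -0.31 between the groups, and Nop10 by 0.25. They are examples, and most windows of lower genes lacked the motif, those of Nolc1 (-0.74) and Ftsj3 (-0.68) included. Utp14b holds it, and its difference of 0.22 did not pass. Whether the motif goes with the direction of a gene was not tested.

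Of the 5 RNA polymerase I subunits caught by the name stems, 3 were lower, with a median difference of -0.22 over the 5. The further lists hold 6 more subunits, of which 5 were lower: Twistnb (-0.34), Cd3eap (-0.45) and, shared with the other polymerases, Polr2e (-0.43), Polr2f (-0.42) and Polr2h (-0.21). Znrd1 differed by -0.06 and did not pass. Polr1a, the largest catalytic subunit, read 9.02, 8.95 and 8.97 in Mn1wt and 8.81, 8.60 and 8.76 in Mn1null. It differed by -0.26 (SE 0.066, limma adjusted p = 0.015). Every Mn1null array was below every Mn1wt array, but without Mn1wt replicate 1 the adjusted p was 0.051, at the upper end of the 0.00077 to 0.051 seen over its alternatives. Polr1b, the second largest subunit, read 9.42, 9.23 and 9.37 against 9.02, 9.09 and 8.91, a difference of -0.33 (SE 0.071, adjusted p = 0.0066). Polr1e, a subunit of the initiation module, read 8.96, 9.03 and 9.0 against 8.77, 8.81 and 8.72, a difference of -0.22 (SE 0.048, adjusted p = 0.0068). In both genes the groups did not overlap.

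Polr1c and Polr1d, which pair with each other and also serve RNA polymerase III, gave different results on different probe sets. Polr1c read 10.54, 10.56 and 10.58 in Mn1wt and 10.55, 10.39 and 10.48 in Mn1null, and the difference of -0.09 (adjusted p = 0.21) did not pass, with overlapping groups. The second probe set of Polr1c, at -0.22, was called lower (limma adjusted p = 0.0097 over probe sets), and the gene was also called lower when its probe sets were averaged. Polr1d read 12.21, 12.29 and 12.31 against 12.43, 12.47 and 12.47, and was called higher by 0.19 (SE 0.049, adjusted p = 0.016). The 3 other probe sets of Polr1d were all called lower, by -0.30 to -0.24, so the direction of this gene depends on the probe set. Its call upward was also lost without Mn1wt replicate 1 (adjusted p = 0.056, the highest over its alternatives, with 6.9e-05 the lowest).

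**Figure D2:**
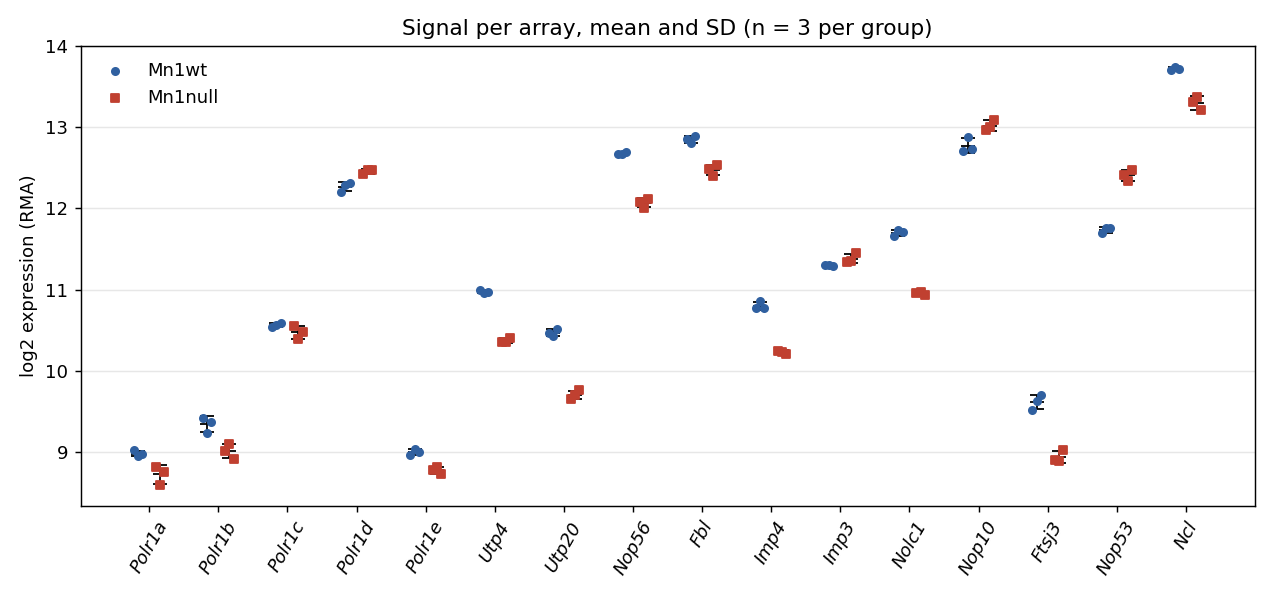
Log2 expression (vertical axis) of 16 of the genes in each array, with Mn1wt as circles, Mn1null as squares, and the mean and SD of each group of 3 in black. Utp20 sits between 10.43 and 10.51 in Mn1wt and between 9.65 and 9.76 in Mn1null, while Polr1d, Nop10 and Nop53 sit higher in Mn1null and Polr1c overlaps. Heights of different genes are not comparable, since each has its own probes.

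Most genes of the small subunit processome were lower. Of 30 genes for this subunit, U3 and box C/D proteins included, 24 were lower, 0 were higher and 6 missed the threshold, and the median difference was -0.46. No gene beyond those 24 had an unadjusted p under 0.05 in the limma fit except Utp14b, which stood higher at 0.22 (adjusted p = 0.09). All 6 genes of UTP-A, the complex that binds the precursor first and is also needed for its transcription, were lower. Utp4 read 11.00, 10.96 and 10.97 in Mn1wt and 10.35, 10.36 and 10.40 in Mn1null, a difference of -0.61 (SE 0.043, adjusted p = 4e-05). Nol11, a vertebrate partner of Utp4, read 10.17, 10.20 and 10.20 against 9.60, 9.76 and 9.65, a difference of -0.52. Heatr1 read 10.04, 10.07 and 10.13 against 9.49, 9.64 and 9.64, a difference of -0.49. In each of these genes the arrays of a group lay close together and the groups did not overlap. Wdr75, Wdr43 and Utp15 were also lower, with differences of -0.48, -0.46 and -0.32. Other, dimmer probe sets did not all pass: the second brightest of Heatr1 gave -0.17 and did not pass while the dimmest was lower at -0.34, and for Wdr75 the other gave -0.24 and did not pass.

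The 2 genes of UTP-B, the next complex to join, that the stems caught were lower, and so were 4 further UTP-B genes, Pwp2 (-0.42), Tbl3 (-0.66), Wdr3 (-0.50) and Wdr36 (-0.41). Utp6 read 10.63, 10.59 and 10.58 in Mn1wt and 10.01, 9.93 and 9.94 in Mn1null, a difference of -0.64 (SE 0.046, adjusted p = 4.2e-05). Utp18 read 10.99, 10.92 and 10.98 against 10.40, 10.46 and 10.38, a difference of -0.55. Among the other small subunit factors, 11 of 16 were lower. Utp20, a very large scaffold protein of the particle, had the largest fall of all 57 genes. It read 10.47, 10.43 and 10.51 against 9.65, 9.70 and 9.76, a difference of -0.77 (SE 0.05, adjusted p = 2.5e-05), or 58.7% of the Mn1wt level. Rrp12, needed for export of the subunit precursor, read 8.89, 8.94 and 8.99 against 8.29, 8.21 and 8.30, a difference of -0.67. Nol10 read 7.78, 7.60 and 7.74 against 7.12, 7.11 and 7.00, a difference of -0.63. In all 3 genes the groups were separated by more than the range within either group. Bysl, Rrp7a, Utp25, Utp11, Nop14, Utp3, Nol7 and Nop9 were lower, with differences of -0.56 to -0.20. Some of these calls rest on the brightest probe set. With the second brightest, Rrp7a gave -0.10 and Utp25 gave -0.01, and with the mean of probe sets Utp25 gave -0.14 and Nol7 gave -0.11, and none of these values passed.

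The other 5 small subunit factors did not pass. Rrp36 differed by -0.12, Utp14a by -0.11, Utp23 by -0.08 and Nol6 by 0.02. Utp14b, a retrogene copy of Utp14a, differed by 0.22 (95% interval 0.00 to 0.44). These intervals leave room for small differences. Utp11, Utp14a and Utp23 depended on the probe set. The other probe sets of Utp11 gave 0.06 and 0.07 and did not pass, the second of Utp14a was lower at -0.53, and one of Utp23 gave 0.35, which was called higher.

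Proteins of the box C/D and U3 particles were lower in 5 of 6 genes, with a median of -0.49. Nop56, a core scaffold of box C/D particles, read 12.67, 12.67 and 12.69 in Mn1wt and 12.08, 12.01 and 12.12 in Mn1null, a difference of -0.61 (SE 0.047, adjusted p = 5.7e-05). Nop58, its partner, read 12.18, 12.10 and 12.19 against 11.63, 11.57 and 11.50, a difference of -0.59. Fibrillarin (Fbl), the methyltransferase of these particles, read 12.85, 12.81 and 12.89 against 12.49, 12.40 and 12.53, a difference of -0.38 (SE 0.052, adjusted p = 0.00088). All 3 of these genes were lower without overlap, and the second probe set of Fbl also fell by 0.27. Rrp9, specific to U3, fell by 0.40.

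Imp4 and Imp3, which bind U3 together, differed in their calls. Imp4 read 10.78, 10.86 and 10.77 in Mn1wt and 10.24, 10.24 and 10.20 in Mn1null, a difference of -0.57 (SE 0.047, adjusted p = 7.2e-05). Imp3 read 11.30, 11.31 and 11.29 against 11.34, 11.35 and 11.45, and its difference of 0.08 did not pass (adjusted p = 0.22), although the groups did not overlap. The log2 ratio of Imp4 to Imp3 was shifted by -0.65 in Mn1null. That shift rests on the brightest probe set of Imp4, since its second brightest gave -0.13 and did not pass, while the dimmest was lower at -0.55.

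The box H/ACA particles convert uridines of the precursor to pseudouridine and also hold telomerase RNA. Of the 4 genes grouped here, the core genes Dkc1, Nhp2 and Nop10 and the chaperone Nolc1, 3 were lower and Nop10 was higher. Gar1, a core gene from the further lists, was lower at -0.32 (adjusted p = 0.00078). Dkc1, the pseudouridine synthase, read 12.52, 12.42 and 12.41 in Mn1wt and 12.29, 12.29 and 12.23 in Mn1null, a difference of -0.18 (SE 0.051, adjusted p = 0.023). That call was lost when Mn1wt replicate 1, Mn1null replicate 1 or Mn1null replicate 3 was left out, although the 2 other probe sets of Dkc1 were lower, at -0.27 and -0.57. Nhp2 read 13.25, 13.30 and 13.27 against 12.98, 12.93 and 13.10, a difference of -0.27 (SE 0.056, adjusted p = 0.006).

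Nop10, the smallest core protein, went up. It read 12.71, 12.88 and 12.73 in Mn1wt and 12.96, 13.01 and 13.09 in Mn1null, a difference of 0.25 (SE 0.065, adjusted p = 0.018), and its second probe set was higher by 0.33. Its groups did not overlap, but the call was lost with each array centred on its median (adjusted p = 0.059) and without Mn1wt replicate 1, Mn1wt replicate 3 or Mn1null replicate 3. Over all alternatives its adjusted p ranged from 3.6e-05 to 0.06 and its difference stayed positive. Nolc1, the chaperone that carries both kinds of particle through the nucleolus, had the second largest fall of the 57 genes. It read 11.66, 11.73 and 11.70 against 10.96, 10.97 and 10.94, a difference of -0.74 (SE 0.044, adjusted p = 1.6e-05), or 59.7% of the Mn1wt level. Its other probe sets were lower, at -0.90 and -0.47.

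Large subunit factors were lower in 14 of 17 genes, with a median of -0.37. Ftsj3, which acts on the precursor of the large subunit RNA, read 9.52, 9.63 and 9.70 in Mn1wt and 8.90, 8.89 and 9.02 in Mn1null, a difference of -0.68 (SE 0.065, adjusted p = 0.00015). Nol8 read 9.75, 9.53 and 9.85 against 9.25, 9.02 and 8.97, a difference of -0.63 with the widest spread of the group (SE 0.105). Rrp8 and Nop2, methyltransferases of the large subunit RNA, were lower, at -0.56 and -0.31. Rrp15, Rrs1, Rrp1b, Nol9, Nop16, Nol12 and Rrp1 were lower, with differences of -0.55 to -0.25. The second brightest probe sets of Nol9 and Nop16 gave -0.18 and -0.08 and did not pass. None of the other probe sets of Nol9 passed, and they ranged from -0.20 to 0.21. For Nol8 the second brightest was lower at -0.44, and the dimmest gave -0.14 and did not pass. A second probe set of Nol12 was called higher, by 0.40.

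Bop1, Pes1 and Wdr12 form the PeBoW complex, which is needed to separate the spacer from the large subunit RNA. Bop1 read 10.61, 10.65 and 10.65 in Mn1wt and 10.08, 10.00 and 10.12 in Mn1null, a difference of -0.57 (SE 0.05, adjusted p = 9.9e-05). Pes1 fell by 0.26, though its second probe set gave 0.20, which did not pass. Wdr12 differed by -0.13, with every Mn1null array below every Mn1wt array, and missed the threshold (adjusted p = 0.053). The GTPase nucleostemin, Gnl3, fell by 0.49 while its relative Gnl3l differed by 0.08 and did not pass.

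Nop53, which brings the RNA exosome to the large subunit precursor, moved furthest in the other direction. It read 11.70, 11.76 and 11.76 in Mn1wt and 12.42, 12.33 and 12.47 in Mn1null, a difference of 0.67 (SE 0.053, adjusted p = 6.4e-05), or 159% of the Mn1wt level. The groups were far apart, and a second probe set was higher by 0.63. The third, dimmer probe set gave 0.23 and did not pass. Nucleolin (Ncl), an abundant nucleolar protein that binds the nascent precursor, read 13.71, 13.75 and 13.72 against 13.31, 13.38 and 13.21, a difference of -0.42 (SE 0.056, adjusted p = 0.00069). All 4 of its other probe sets were lower as well, at -0.79 to -0.45.

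**Figure D3:**
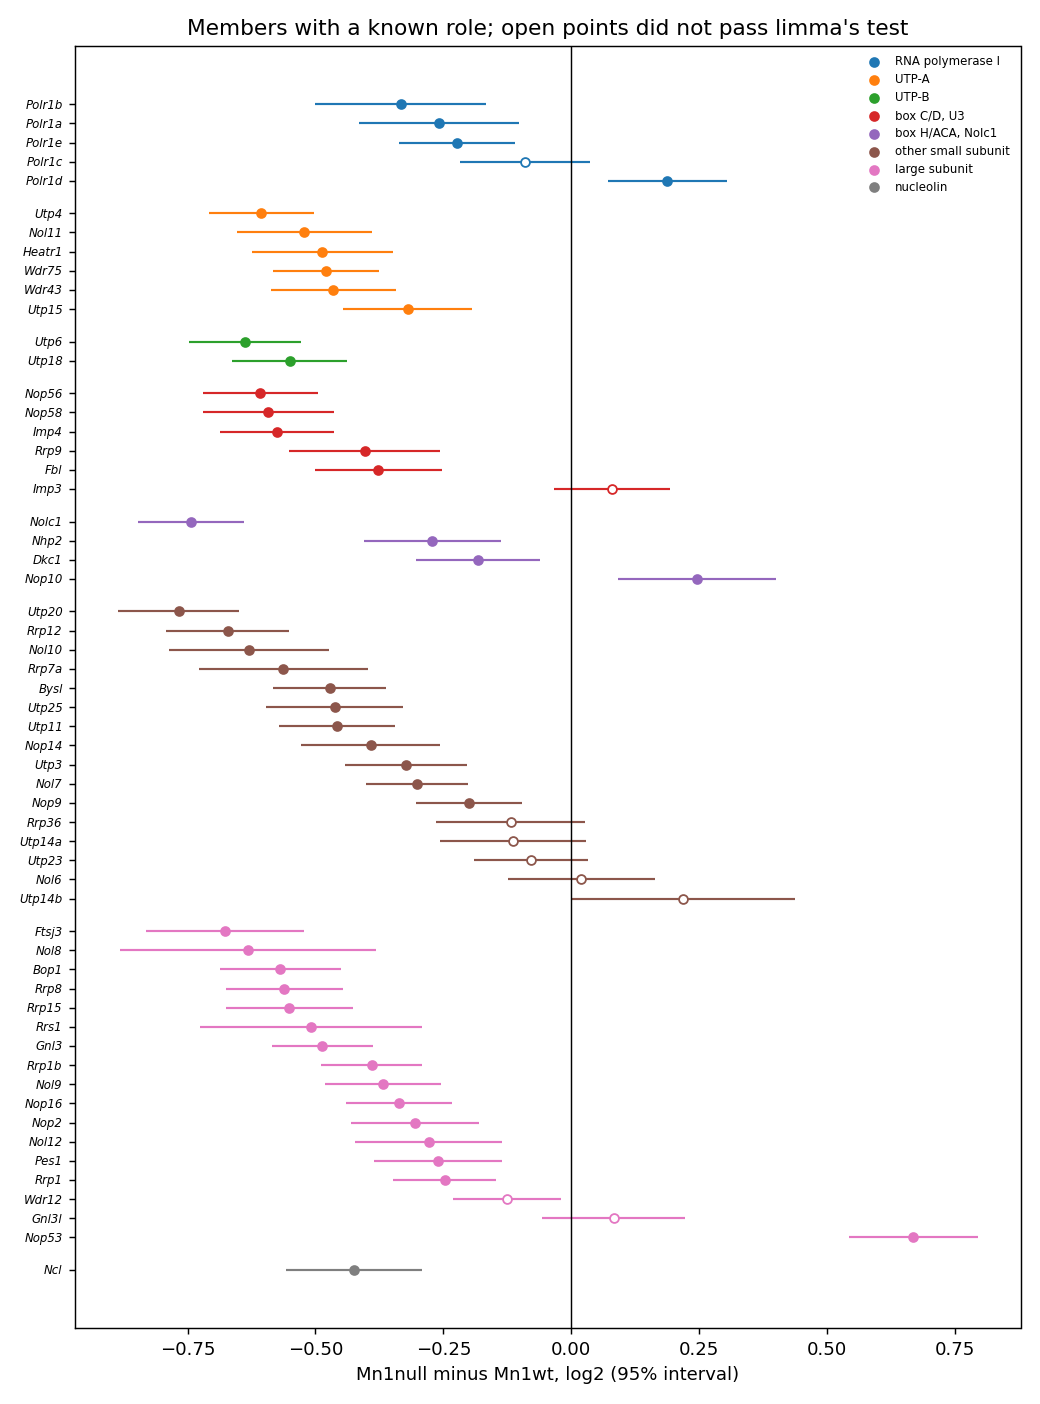
Difference of Mn1null minus Mn1wt (horizontal axis, log2) with its 95% interval for each of the 57 genes with a known role, grouped by role and coloured by it. Filled points passed limma's adjusted threshold and open points did not. Of the points, 45 filled ones lie left of 0 and 3 lie right of it (Polr1d, Nop10 and Nop53).

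Partners within complexes, and 3 pairs of related copies (Gnl3 with Gnl3l, Rrp1 with Rrp1b, Utp14a with Utp14b), were compared directly on their brightest probe sets, as the shift in the log2 ratio of the pair between groups. With 3 arrays a group, an exact 2-sided permutation test cannot go below p = 0.1, so none of the 12 pairs can pass a threshold of 0.05. In 9 pairs the ratios of the groups did not overlap (exact permutation p = 0.1, Benjamini-Hochberg adjusted 0.13). The larger of these shifts were -0.65 for Imp4 against Imp3, -0.57 for Gnl3 against Gnl3l, -0.52 for Nhp2 against Nop10, -0.44 for Bop1 against Wdr12 and -0.43 for Dkc1 against Nop10. Nop56 against Fbl shifted by -0.23. Ratios overlapped for Dkc1 against Nhp2 (0.09), Polr1a against Polr1b (0.08) and Nop56 against Nop58 (-0.02). The pairs were chosen with the genes' values known. No share over other gene pairs was computed. Single genes already did not overlap in 30.1% of all genes tested with Mn1null lower and in 27.6% with it higher. The count of 9 is therefore not read as a result about the pairs.

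Probe sets of the same gene mostly moved together. The values above are those of the brightest probe set of each gene. In a separate limma fit over 31526 probe sets, where 22.2% were called lower and 19.3% were called higher, the 57 genes had 61 other probe sets that were bright enough to test. Of these, 34 were lower (55.7%), 5 were higher and 22 did not pass, and 50 had the sign of the brightest. Of the 45 lower genes, 29 had another tested probe set, 20 had at least 1 other that was lower, and 15 had all others lower. The exceptions called against a called brightest probe set were the 3 of Polr1d, 1 of Nol12 and 1 of Nol7 (0.23). Probe sets of a gene share its RNA and are not replicates.

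**Figure D4:**
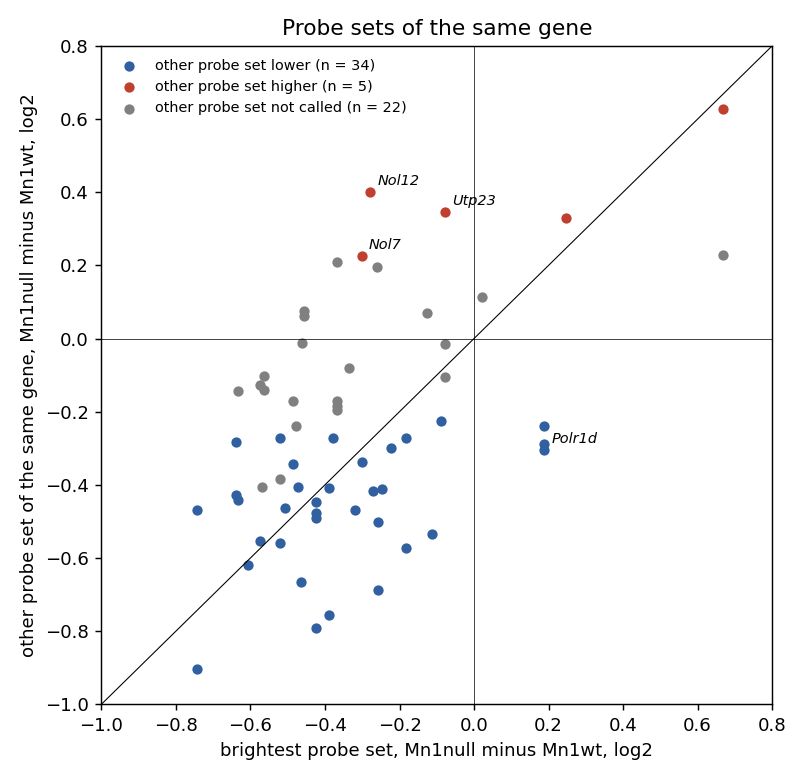
Difference of Mn1null minus Mn1wt (log2) of each of the 61 other tested probe sets (vertical axis) against that of the brightest probe set of the same gene (horizontal axis). Points are coloured by the call of the other probe set (34 lower, 5 higher, 22 not called), the slanted line marks equal differences, and Polr1d, Utp23, Nol7 and Nol12 are labelled at their probe set farthest from it.

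The 10 genes caught by name alone did not share the shift. They were the fibulins Fbln1, Fbln2, Fbln5 and Fbln7, which are extracellular matrix proteins, the adaptor Fblim1, the membrane protein Ncln, the apoptosis repressor Nol3, and Fbll1, Nol4 and Nol4l. Fbln7 was too dim to test. Of the other 9, 0 were called lower by limma (0 also at an unadjusted p under 0.05) and 1 was higher, with a median of 0.04. Over all genes tested 25.6% were lower and 23.2% higher, so counts among 9 genes say little. Several of the 9 were dim, and their median SD in Mn1wt was 0.131, against 0.037 for the genes with a known role. Nol4l read 5.23, 5.76 and 5.57 in Mn1wt and 6.69, 6.81 and 6.93 in Mn1null, a difference of 1.29 (SE 0.135, adjusted p = 0.00023). A second probe set of Nol4l was higher by 1.05, and the last gave -0.01.

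Further genes of the pathway, whose names the stems do not catch, moved in the same direction. Of 128 assembly genes in 5 lists, 108 were lower and 2 were higher, the other 18 missed the threshold, and the median difference was -0.40. The lists were drawn from general knowledge with earlier results of these data known, so their direction is not independent evidence. Of 14 polymerase I factors and further subunits, 9 were lower. Tcof1, the treacle protein that recruits the polymerase to ribosomal DNA, read 9.29, 9.39 and 9.40 in Mn1wt and 8.74, 8.72 and 8.80 in Mn1null, a difference of -0.61 (adjusted p = 8.9e-05). Cd3eap, a subunit, read 8.01, 7.96 and 8.26 against 7.53, 7.68 and 7.66, a difference of -0.45 (adjusted p = 0.0046). In both genes the groups did not overlap. Ubtf, which binds ribosomal DNA, read 10.66, 10.65 and 10.67 in Mn1wt and 10.35, 10.36 and 10.44 in Mn1null, a difference of -0.28 (SE 0.045, adjusted p = 0.002). Rrn3, the initiation factor that links the polymerase to the promoter, read 9.62, 9.70 and 9.66 against 9.56, 9.73 and 9.61, and its difference of -0.03 did not pass (adjusted p = 0.7).

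Of 40 further small subunit factors, 37 were lower, and Esf1 and Rbm19 had the largest differences. Esf1 read 10.27, 10.11 and 10.32 in Mn1wt and 9.54, 9.31 and 9.21 in Mn1null, a difference of -0.88 (adjusted p = 0.0003). Rbm19 read 8.04, 8.16 and 8.27 against 7.47, 7.27 and 7.34, a difference of -0.79 (adjusted p = 0.00019). Of 47 further large subunit factors, 41 were lower. Wdr18, of the complex that clears the internal spacer, read 10.53, 10.45 and 10.48 in Mn1wt and 9.47, 9.28 and 9.42 in Mn1null, a difference of -1.10 (SE 0.061, adjusted p = 1.3e-05), or 46.7% of the Mn1wt level. The helicase Ddx56 read 10.02, 10.02 and 10.15 against 9.31, 9.28 and 9.41, a difference of -0.72 (adjusted p = 7.4e-05). Nucleophosmin (Npm1), the abundant nucleolar chaperone, read 14.11, 14.18 and 14.11 against 13.95, 13.93 and 13.91, a difference of -0.20 (SE 0.045, adjusted p = 0.0077). All of these named genes had groups that did not overlap.

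Of 11 assembly factors of small nucleolar particles 9 were lower. Rpap3, a cofactor of the chaperone that builds these particles, read 10.08, 10.07 and 10.11 in Mn1wt and 9.42, 9.47 and 9.31 in Mn1null, a difference of -0.69 (adjusted p = 6.5e-05). Nufip1, another assembly factor, read 9.51, 9.48 and 9.52 against 8.96, 8.92 and 8.99, a difference of -0.55 (adjusted p = 7e-05). Of 16 exosome and exonuclease genes 12 were lower. Dis3, a nuclease of the exosome, read 11.21, 11.21 and 11.24 against 10.28, 10.16 and 10.29, a difference of -0.97 (adjusted p = 1.1e-05), or 50.9% of the Mn1wt level. Exosc1 read 10.98, 11.08 and 11.07 against 10.56, 10.51 and 10.53, a difference of -0.51 (adjusted p = 0.00016). None of these 4 genes had overlapping groups. The 2 higher genes were Nob1 (0.21, adjusted p = 0.035) and Nsa2 (0.15, adjusted p = 0.042), and each call was lost when certain arrays were left out, Mn1wt replicate 1, Mn1wt replicate 3 or Mn1null replicate 1 for both, Mn1null replicate 3 for Nob1 and Mn1null replicate 2 for Nsa2.

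MYC, whose family binds CACGTG, was also read together with its partners. Myc read 11.40, 11.51 and 11.50 in Mn1wt and 11.54, 11.51 and 11.69 in Mn1null, and its difference of 0.11 did not pass (SE 0.064, adjusted p = 0.2). Mycn averaged 14.53 in Mn1wt and 14.63 in Mn1null, and its difference of 0.10 did not pass either (adjusted p = 0.092). For Myc, narrowly, and for Mycn every Mn1null array lay above every Mn1wt array, as in 27.6% of all genes tested. Of the 10 genes of this list, 3 were higher, 1 was lower and 6 did not pass, where 23.2% of all genes tested were higher and 25.6% lower. Mxd4, a MAX partner that represses MYC targets, read 7.76, 7.65 and 7.93 against 9.84, 9.67 and 9.68, a difference of 1.95 (SE 0.084, adjusted p = 3.8e-06), or 3.86-fold. Mxd1, a relative, read 7.00, 7.10 and 7.20 against 7.62, 7.75 and 7.76, a difference of 0.61 (adjusted p = 0.00031). Neither gene had overlapping groups. Mxi1 was higher by 0.23, a call lost with its second brightest probe set (0.19), and Mxd3 fell by 0.41. MYC protein and binding were not measured.

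The groups also differed in some of their cell type markers. All 7 haematopoietic progenitor markers, Ptprc, Kit and Spi1 among them, were measured above the filter. Their summed linear level was 8868 to 9031 in Mn1wt and 12862 to 13026 in Mn1null, with 5 higher and 1 lower. Kit was the lower one (-0.17), and Ptprc did not pass (0.03). The 5 higher ones were Csf2rb (1.36), Itgam (0.84), Cd34 (0.79), Flt3 (0.72) and Spi1 (0.19). The summed level of 10 monocyte and macrophage markers was 8395 to 8964 in Mn1wt and 777 to 823 in Mn1null, with 8 lower and 1 higher. That of 9 mast cell and basophil markers was 3761 to 3857 against 14981 to 15603, with 6 of 8 tested higher. Of 9 neutrophil markers 7 were higher and 1 was lower, of 7 erythroid markers 4 were higher, of 6 B cell markers 1 moved each way, and of 6 T cell markers 0 of 4 tested passed (0 also at an unadjusted p under 0.05). Of 9 stromal and endothelial markers 8 were tested, 1 was higher and 1 was lower. Over all genes tested 23.2% were higher and 25.6% lower, so the small B cell, T cell and stromal counts say little. Mrgprb1, Cd3g, Cd247 and Col3a1 lay below the filter. The part of these marker differences in the lower ribosome genes was not tested.

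Mn1 itself read 4.49, 4.12 and 4.44 in Mn1wt and 4.21, 4.12 and 4.07 in Mn1null, near the floor in both groups, and its difference of -0.22 did not pass (adjusted p = 0.12). The sources used here do not place its probes relative to the deletion, so the probe set checks no label. The labelling controls, RNAs of known sequence that are carried through the labelling, also moved with the groups. Their 5′ probe sets averaged 7.32 ± 0.10 (SD, n = 3) in Mn1wt and 6.47 ± 0.06 (SD, n = 3) in Mn1null, a difference of -0.85, and the difference was -0.49 for the middle and -0.30 for the 3′ probe sets. The hybridisation controls differed by -0.09. Probe sets at the ends of the cells' own control transcripts were also compared, as the 3′ minus the 5′ log2 signal. In Mn1null this was higher by 0.49 for pyruvate carboxylase and by 0.27 for 18S RNA without overlap of the groups, and the groups overlapped for actin (-0.01), Gapdh (0.03) and the transferrin receptor (0.09). The part of labelling or RNA quality in the lower ribosome genes was not tested.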

How the data were processed

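The authors deposited log2 values, which the submitters' processing notes credit to RMA. RMA equalises the arrays, so differences in total RNA per cell are removed. The sources used here give neither its version nor probe positions. Only the 34945 of 45037 probe sets that named 1 gene were used, each gene by its brightest, and 3513 genes with a mean under the 30th percentile (4.07) were left out. The test was that of limma 3.58.1 (lmFit, then eBayes) under R 4.3.3, 2-sided, with no block and Benjamini-Hochberg adjustment over 14680 genes. Array medians lay between 5.16 and 5.22, no arrays were identical, and the number of arrays limits the precision.

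The genes and lists were chosen with earlier results of these data known. Values per array are given for the polymerase I subunits caught by the stems, Ncl, Fbl, Npm1, the 3 largest changes per role, members called higher, the 2 largest per further list, Myc, Ubtf and Rrn3. Imp3, Bop1 and Dkc1, shown as partners, and other further genes named by their differences were picked after their values were seen. In 20 simulations of this comparison (14680 genes, 50 changed at each size), 19% of differences of 0.25, 66.9% of 0.5, 93.1% of 1 and 99.9% of 2 were recovered, and 5.26% of calls were false. Far fewer genes were changed in them than the 48.8% called in the real fit. The Benjamini-Hochberg adjustment depends on that share, so these recovery rates do not carry over to the real fit. Alternatives were other probe set rules, filters, scalings, eBayes settings, weighted arrays, a replicate block, a stricter threshold (0.01) and leaving out each array. The fit over all probe sets and the motif shares over genes tested were added after seeing the data.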

Additional observations from a re-analysis of the deposited data

How the results depend on the processing

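Under the alternatives run, the ribosome genes called lower numbered 37 to 47 and those called higher 2 to 4 (2 at a threshold of 0.01). Leaving out each array in turn gave 43 to 46 lower, 3 to 4 higher and medians of -0.35 to -0.32. These medians are over all tested genes that the stems caught, those caught by name alone included. Without any change of setting their median was -0.33. It was -0.29 with the second brightest probe set, -0.30 after quantile normalization, -0.37 after median centring and -0.39 for genes with a known role only. For the 128 further assembly genes the median was -0.33 with the mean of probe sets, -0.31 with the second brightest and -0.44 after median centring. Of these, the genes called higher numbered 1 with the mean of probe sets, 1 without a filter, 4 after quantile normalization, 4 with trend and robust eBayes, 0 after median centring, 0 at the threshold of 0.01 and 0 to 2 when an array was left out. Among genes called before or after the change, directions turned for Nol12 (0.0603 with the mean, 0.40 with the second brightest probe set) and Polr1d (-0.16 and -0.29). With the second brightest probe set they also turned for Nol4l (-0.0131), Pes1 (0.20), Utp11 (0.0608) and Utp23 (0.35). With probe sets designed for 1 transcript they turned for Utp11 (0.0608) and Utp23 (0.35). Genes called in neither setting, such as Wdr12, Fbll1 and Fbln1, are not counted as turned. With the second brightest probe set Heatr1, Imp4, Nol9, Nop16, Rrp7a, Utp25 and Wdr75 kept their direction but lost the call, as did Nol7, Nol9, Pes1, Utp11 and Utp25 with the mean of probe sets. In those settings other probes were read, and the cause was not tested. With probe sets designed for 1 transcript Nop53 gave 0.23 and lost its call (limma adjusted p = 0.0504). In that setting Wdr75 gave -0.24 and also lost its call.

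The replicate numbers did not pair the samples, since deviations of same-numbered arrays correlated at -0.04, 0.11 and 0.08. With the replicate number as a block, 45 ribosome genes were lower and 4 were higher, and 0 further assembly genes were called higher. Signals near the floor, such as those of the fibulins, are compressed and limit what can be seen there.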
